A study of Homo sapiens with 4 samples.

Results

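The control cells of 2 androgen-insensitive prostate cancer cell lines, PC3 and DU145, were compared by their RNA. PC3 was derived from a bone metastasis of prostate cancer and DU145 from a brain metastasis. Both controls, PC3-shC and DU145-shC, carried a short hairpin RNA against luciferase, so no gene of the cells was targeted. They are 2 of the 4 samples of the series. The other 2, PC3-shESS2 and DU145-shESS2, carried an shRNA against ESS2, a nuclear protein that acts with the spliceosome and as a transcriptional coregulator. All cells were grown in RPMI1640 with 10% FBS at 37 °C and 5% CO2, and 0.1 µg of total RNA per array was labelled with Cy3 and hybridized to an Agilent human gene expression array, 1 array per condition. The labels, and the xenograft methods of the study, call the cells transduced. The methods for making the PC3 lines describe plasmid transfection and puromycin selection, and the DU145 arrays are not described there.

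The normal prostate epithelium has luminal cells, which depend on androgen and secrete prostate proteins, basal cells, which hold keratins and adhesion genes of stratified epithelia, and rare neuroendocrine cells. PC3 and DU145 both grow without androgen. The lines are known to have lost different tumor suppressor genes, among them CTNNA1, which encodes alpha-catenin, the link between cadherins and actin, in PC3, and RB1, the brake on entry into S phase, in DU145.

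A level is given here as the log2 processed signal of the brightest probe of a gene minus the 75th percentile of its array, so that 0 is the 75th percentile. Genes entered the comparison if the scanner software called them well above background in PC3-shC, in DU145-shC or in both. A gene that the software did not so call on 1 array is named dim there. A dim level below the lowest signal so called was raised to it. The fold of a dim gene is then a lower bound, given as "at least", or for a log2 ratio as "or above" or "or below". The 75th percentile of the signal lay between 212 and 290 on the 4 arrays, and 50.8 to 52.6% of the spots were well above background. With 1 control array per cell line, the difference between the lines has no replicate check, and the number of arrays limits its precision. The probes spotted 10 times had a median SD of the log2 ratio between spots of 0.0836, which covers neither hybridization nor cells. The PC3 and DU145 arrays lay on different slides scanned in different sessions with different software versions, so cell line and slide cannot be told apart in any value given here.

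Of 17475 genes compared, 7343 differed by more than 2-fold, which is 42.0%. In PC3-shC, 3863 were higher (22.1%) and 3480 were lower (19.9%), and the median log2 ratio of all genes was 0.12. These shares are the background against which each gene group is read. Scaling to the median of each array moved the median ratio to 0.58 and the split to 6132 higher and 2371 lower, and the scaled values of the authors moved it to -0.33, with 2399 higher and 5159 lower. Differences of many-fold do not turn on this, whereas groups with a median near 0 have no settled direction. Among genes well above background on 1 control array only, 1156 were so in PC3-shC and 1325 in DU145-shC. The same comparison on the ESS2 knockdown arrays, which shares no array with the first, had 7476 of 17714 genes past 2-fold (42.2%). Of the 7191 genes past 2-fold between the controls that could be compared there, 3074 were again more than 2-fold higher in PC3 and 2695 again more than 2-fold lower, together 80.2%. Over all 4 arrays, limma with a term for the knockdown called 8510 of 18128 genes as different between the lines (46.9%) at an adjusted p of 0.05, 4624 higher in PC3 (25.5%) and 3886 lower (21.4%), from 1 residual degree of freedom. Limma counts here and in the gene groups include genes dim on both arrays of 1 line, whose spread there is that of the raised level and not a measured one, so no p is given for such a gene.

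**Figure D1:**
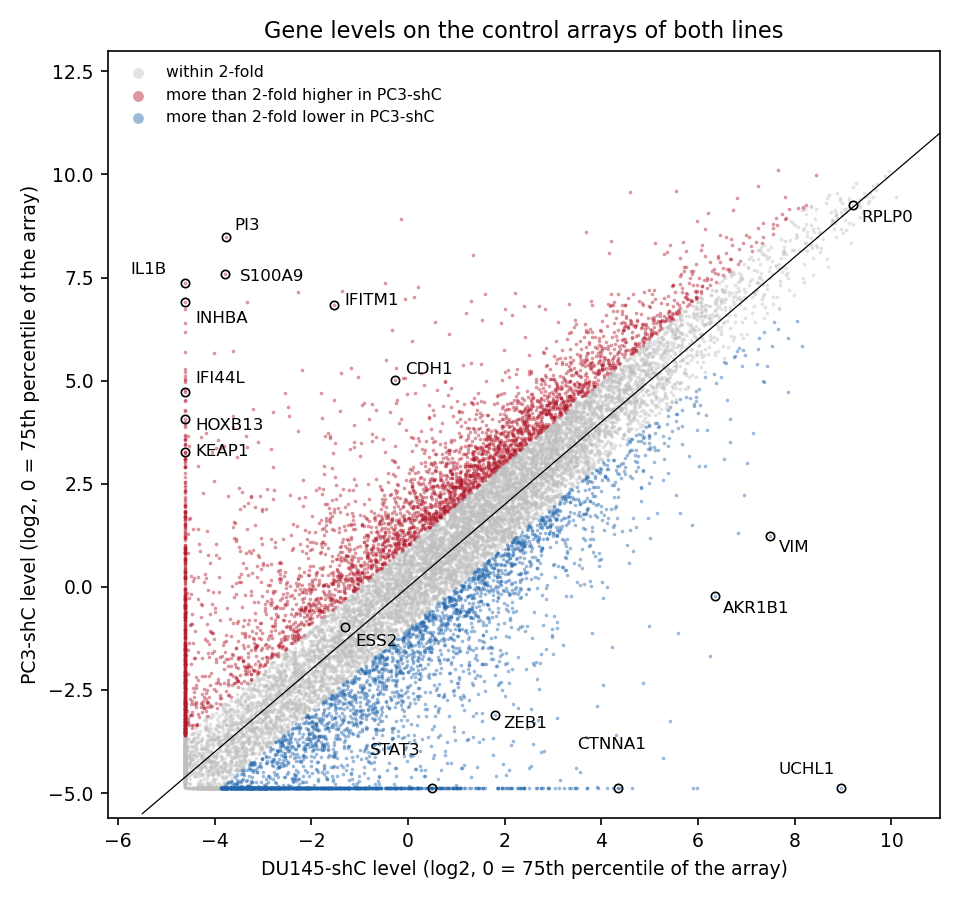
Each point is a gene compared on the control arrays, with its level in DU145-shC on the horizontal axis and in PC3-shC on the vertical axis (log2, 0 is the 75th percentile of each array; the diagonal marks equal levels). Points on the vertical edge at the left and on the lower edge are genes not well above background in 1 line, such as IL1B in DU145-shC and UCHL1 in PC3-shC, while the ribosomal gene RPLP0 lies on the diagonal.

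The known loss of CTNNA1 in PC3 was read first, as a check of the labels. CTNNA1 was dim on both PC3 arrays and had levels of 4.35 in DU145-shC and 4.46 in DU145-shESS2, at least 599-fold lower in PC3-shC. Both PC3 arrays were thus below both DU145 arrays.

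Of the genes listed for known losses in DU145, STK11, RB1, BAX and CDKN2A were all well above background there. STK11, the LKB1 kinase, was 2.76-fold higher in PC3-shC (limma adjusted p = 0.015). RB1 and BAX, a pro-apoptotic protein, had log2 ratios of 0.14 and 0.35 (limma adjusted p of 0.84 and 0.23). CDKN2A, the p16 and p14ARF locus, went the other way, with levels of 4.99 and 4.67 in PC3 and 7.34 and 7.48 in DU145 and a log2 ratio of -2.36 (limma adjusted p = 0.0048). The array measures RNA and shows no mutation.

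In gene order, the genes around CTNNA1 were read for how far the gap in RNA reached. SIL1, next to CTNNA1 on chromosome 5, was dim on both PC3 arrays with levels of 0.17 and 0.56 in DU145, at least 33.0-fold lower in PC3-shC, whereas MATR3 beyond it had a log2 ratio of 0.54. Of the 5 measured neighbours on each side, SIL1 was the one that was dim in PC3-shC. EGR1, an immediate early transcription factor 4 measured genes before CTNNA1, was well above background in both lines but 105-fold lower in PC3-shC, with levels of -1.12 and -0.24 in PC3 and 5.59 and 6.24 in DU145.

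The longest run of neighbouring compared genes that were dim in PC3-shC and measured in DU145-shC lay on chromosome 17 and held 8 genes, DHX58, KAT2A, HSPB9, RAB5C, GHDC, STAT5B, STAT5A and STAT3. All 8 were past 2-fold and all 8 were also not well above background on the PC3-shESS2 array. KAT2A, the GCN5 histone acetyltransferase, had levels of 3.92 and 3.98 in DU145 and was at least 447-fold lower in PC3-shC. STAT5B and STAT3, which carry cytokine signals to the nucleus, had levels of 2.09 and 0.50 in DU145-shC and were at least 125-fold and 41.5-fold lower. STAT5A and HSPB9 were weak in DU145 too, so that their bounds were only 5.94-fold and 2.28-fold. The measured genes on both sides were well above background in PC3-shC, among them DNAJC7, an HSP70 cochaperone, with a log2 ratio of 0.53, and CAVIN1, a caveolar coat protein, with levels of 7.57 in PC3-shC and 8.38 in DU145-shC. The probes of CAVIN1 disagreed, with log2 ratios of -0.81 and -11.77. ATP6V0A1, a subunit of the vacuolar proton pump and the next gene after CAVIN1, had levels of -3.60 in PC3-shC and 4.30 in DU145-shC, and was dim in PC3-shESS2. In DU145-shC the longest such run was 5 keratin genes on chromosome 12, KRT75, KRT6B, KRT6C, KRT6A and KRT74. Of these, 4 were past 2-fold, and KRT74 was at 0.31 or above. Runs of at least 4 genes numbered 8 for PC3-shC and 6 for DU145-shC. A run needs only dim calls and no 2-fold difference, and the run from OLIG3 to LINC02539 in DU145-shC held 0 of 4 genes past 2-fold. How many such runs would arise by chance was not tested. The array does not tell a missing gene from a silent one.

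**Figure D2:**
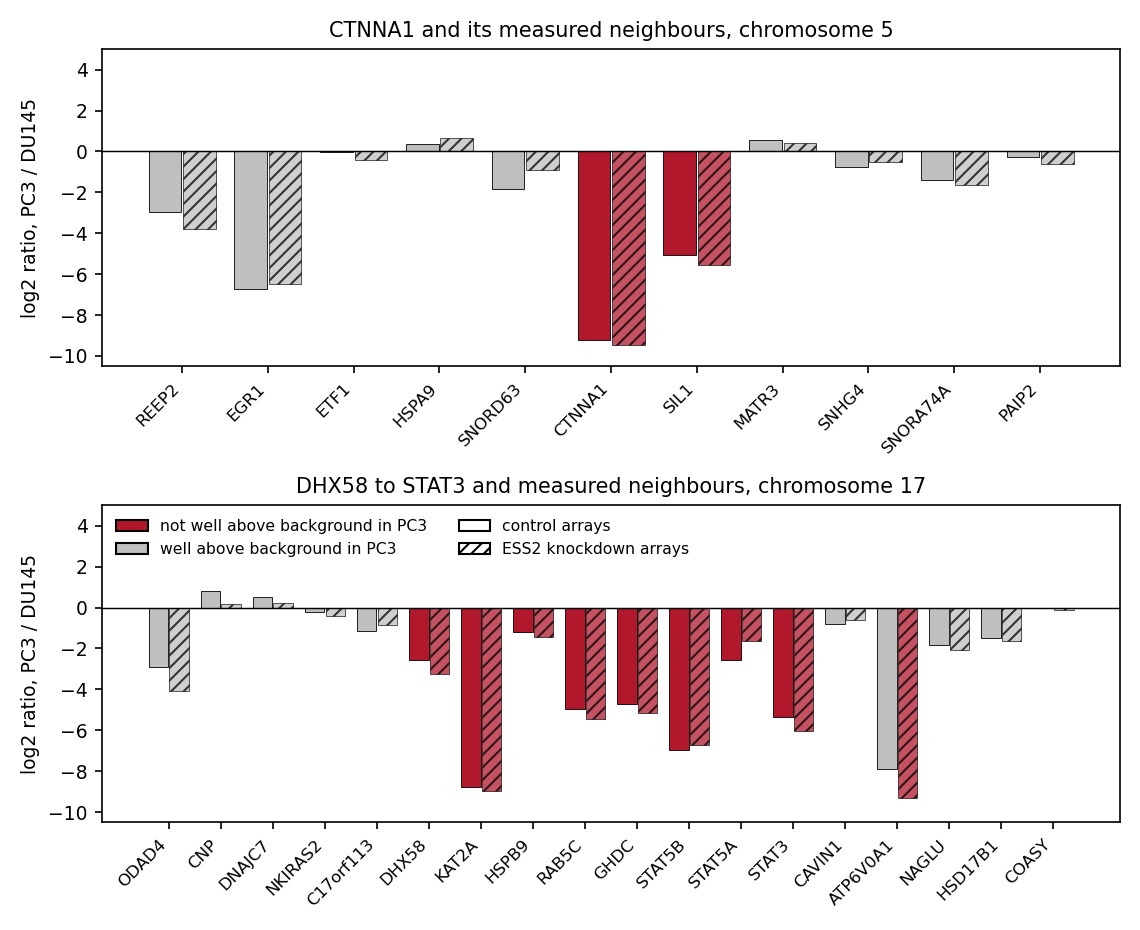
Bars give the log2 ratio of PC3 over DU145 for genes in chromosome order, plain for the control arrays and hatched for the ESS2 knockdown arrays, red where the gene was not well above background in PC3 and therefore a bound. CTNNA1 with SIL1 and the 8 genes from DHX58 to STAT3 are red in both pairs, and the genes directly beside them are grey, from -1.85 for SNORD63 to 0.54 for MATR3, while EGR1 and ATP6V0A1 farther out are low and grey on the control arrays.

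The interferon response genes had the highest median ratio of the 43 gene lists. They encode antiviral proteins that cells make when interferon acts through STAT2 and IRF9. Of 60 members compared, 52 were more than 2-fold higher in PC3-shC (86.7%, against 22.1% of all genes), none was more than 2-fold lower, and the median log2 ratio was 3.63. That median stayed between 2.40 and 4.08 over the 6 scalings compared. On the knockdown arrays 44 of 61 were more than 2-fold higher in PC3, none was lower, and the median was 2.14. Limma called 40 of 61 members as higher in PC3 and none as lower.

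IFI44L, an interferon-induced antiviral protein, had levels of 4.73 in PC3-shC and 0.93 in PC3-shESS2 and was not well above background on either DU145 array, at least 651-fold higher in PC3-shC. BST2, the tetherin that holds budding virus at the membrane, had levels of 4.26 and 0.45 in PC3 and was dim on both DU145 arrays, at least 470-fold higher. OAS1, which makes the 2-5A signal for RNase L, had levels of 3.09 and 1.09 in PC3 and was dim in DU145. These genes were measured in PC3 only, and their levels in PC3-shESS2 lay between those of PC3-shC and the background of the DU145 arrays. SAMD9L, a translation-blocking antiviral protein, had levels of 2.91 and 2.92 in PC3 and was dim in DU145, close to each other on the PC3 arrays. IFITM1, which blocks viral entry, was measured on all arrays, at 6.84 and 1.81 in PC3 and -1.54 and 0.38 in DU145. Its log2 ratio was thus 8.38 between the controls and 1.43 between the knockdown arrays (limma adjusted p = 0.094). ISG15, the ubiquitin-like modifier, had levels of 8.60 and 8.95 in PC3 and 3.69 and 4.63 in DU145 (limma adjusted p = 0.0023).

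Of the transcription factors of this response, IRF7, IRF9 and STAT2 had log2 ratios of 4.45, 2.61 and 1.20 between the controls and of 2.16, -0.25 and -0.13 between the knockdown arrays. IRF1 had 0.77 and 0.73. IFNB1, which encodes interferon beta, was not well above background on either control array, and IFNL1, a type III interferon, had levels of -4.08 in PC3-shC and 0.47 in PC3-shESS2. Besides IRF1 and IFNL1, the 8 members within 2-fold were PARP12, TRIM25, ADAR, USP18, HERC5 and ISG20, with log2 ratios of 0.95, 0.91, 0.55, 0.77, 0.53 and -0.79. DHX58, a helicase of the same RNA-sensing pathway that is not in the list, was dim in PC3 as part of the run on chromosome 17.

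The promoters of the interferon response genes were searched for the core of the interferon-stimulated response element, GAAANNGAAA, on both strands in the 250 bases before the start, with overlapping matches counted. Of the 52 higher members, 42 had a RefSeq promoter, and 19 of these held the motif (45.2%). It was present in 3.07% of all 27305 promoters of the table and in 3.40% of the promoters of all genes more than 2-fold higher in PC3-shC. The list was made of known interferon response genes, so a high share of the motif comes with the choice of genes. Members that were not higher were not counted, so the share does not bear on the difference between the lines. The upstream 250 bases of 4 members that carry it are shown 5′ to 3′ (RefSeq, GRCh38.p14), with the matches in capitals. IFI44L lies at chr1:78620198-78620447 on the plus strand, IFITM1 at chr11:313790-314039 on the plus strand, BST2 at chr19:17405631-17405880 on the minus strand and ISG15 at chr1:1013247-1013496 on the plus strand.
IFI44L: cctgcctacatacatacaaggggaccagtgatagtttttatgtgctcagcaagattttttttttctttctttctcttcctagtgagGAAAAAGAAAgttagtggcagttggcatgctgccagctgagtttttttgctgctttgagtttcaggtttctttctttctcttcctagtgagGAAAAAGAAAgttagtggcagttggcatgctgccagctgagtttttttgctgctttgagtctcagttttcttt
IFITM1: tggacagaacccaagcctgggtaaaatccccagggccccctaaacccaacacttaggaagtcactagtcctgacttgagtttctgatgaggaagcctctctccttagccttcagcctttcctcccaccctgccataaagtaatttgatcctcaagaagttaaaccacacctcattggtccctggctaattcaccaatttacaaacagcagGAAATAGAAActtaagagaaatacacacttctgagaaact
BST2: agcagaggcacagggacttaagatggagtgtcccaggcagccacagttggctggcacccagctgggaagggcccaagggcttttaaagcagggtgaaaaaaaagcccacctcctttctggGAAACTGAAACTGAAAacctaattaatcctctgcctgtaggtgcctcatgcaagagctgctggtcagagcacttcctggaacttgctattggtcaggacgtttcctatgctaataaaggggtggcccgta
ISG15: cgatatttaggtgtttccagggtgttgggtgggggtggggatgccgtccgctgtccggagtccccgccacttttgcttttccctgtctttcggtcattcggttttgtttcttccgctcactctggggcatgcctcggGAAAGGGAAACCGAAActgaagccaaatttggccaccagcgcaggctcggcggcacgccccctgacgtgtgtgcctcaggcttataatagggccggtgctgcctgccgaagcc
IFI44L, BST2 and ISG15 each held 2 matches, those of BST2 and ISG15 overlapping, and IFITM1 held 1. OAS1, SAMD9L and MX1 held none in this window.

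The cytokines and regulators known as NF-κB targets were also more often higher than lower in PC3-shC. Of 66 compared, 33 were more than 2-fold higher and 11 more than 2-fold lower, against 22.1% and 19.9% of all genes, with a median log2 ratio of 1.05. Over the 6 scalings, 26 to 37 were higher and 6 to 21 lower. Limma called 25 of 66 as higher and 9 as lower. IL1B, the fever cytokine interleukin-1 beta, had levels of 7.38 in PC3-shC and 3.45 in PC3-shESS2 and was not well above background in DU145, at least 4082-fold higher in PC3-shC. CXCL5, a chemokine for neutrophils, had levels of 7.36 and 6.19 in PC3 and -0.48 and -0.32 in DU145, a log2 ratio of 7.84. PTGS2, the COX-2 enzyme, had levels of 3.58 and 1.34 in PC3, was dim in DU145-shC and had a level of -3.32 in DU145-shESS2. All PC3 values of these 3 genes lay above all DU145 values.

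Complement and acute phase genes were part of this group. C3, the central complement protein, had levels of 6.97 and 3.53 in PC3 and -0.06 and -0.87 in DU145. LCN2, an iron-binding defence protein, had levels of 7.26 and 4.01 in PC3 and 0.20 and -2.35 in DU145. CSF3, the granulocyte colony-stimulating factor, had levels of 4.77 in PC3-shC and -2.66 in PC3-shESS2 and was dim in DU145. For C3, LCN2 and CSF3 alike, PC3-shESS2 lay between PC3-shC and the DU145 arrays. IL6 and CXCL8, interleukins 6 and 8, had log2 ratios of 3.11 and 1.43, whereas the inhibitor NFKBIA had 0.05. Members more than 2-fold lower in PC3-shC included the receptors TNFRSF9 and IL6R, both dim in PC3-shC and at -3.86 and -3.79 or below, and BCL3, a nuclear partner of NF-κB, at -1.52. TNF, the founding cytokine of the group, was weak on both arrays, with levels of -3.53 and -2.62.

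The S100 genes, small calcium-binding proteins of epithelia and phagocytes, had 11 of 16 members more than 2-fold higher in PC3-shC (68.8%) and 1 lower (6.25%). Of all genes, 22.1% were higher and 19.9% lower. S100A9 had levels of 7.58 and 5.07 in PC3 and -3.79 and -2.05 in DU145, a log2 ratio of 11.37. Its partner S100A8 had levels of 6.74 and 3.49 in PC3 and was dim in DU145. S100P and S100A14 had log2 ratios of 10.23 and 9.36. S100A8 and S100A9 are also leukocyte genes. Of the 13 leukocyte genes compared, 3 were more than 2-fold higher (23.1%) and 2 more than 2-fold lower (15.4%) in PC3-shC, near the shares of all genes. PTPRC (CD45) had levels of -2.14 and -2.96 on the control arrays, and CD3E, CD3G, MS4A1 and ITGAM were not well above background on either. The part of other cells in these results was not tested.

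**Figure D3:**
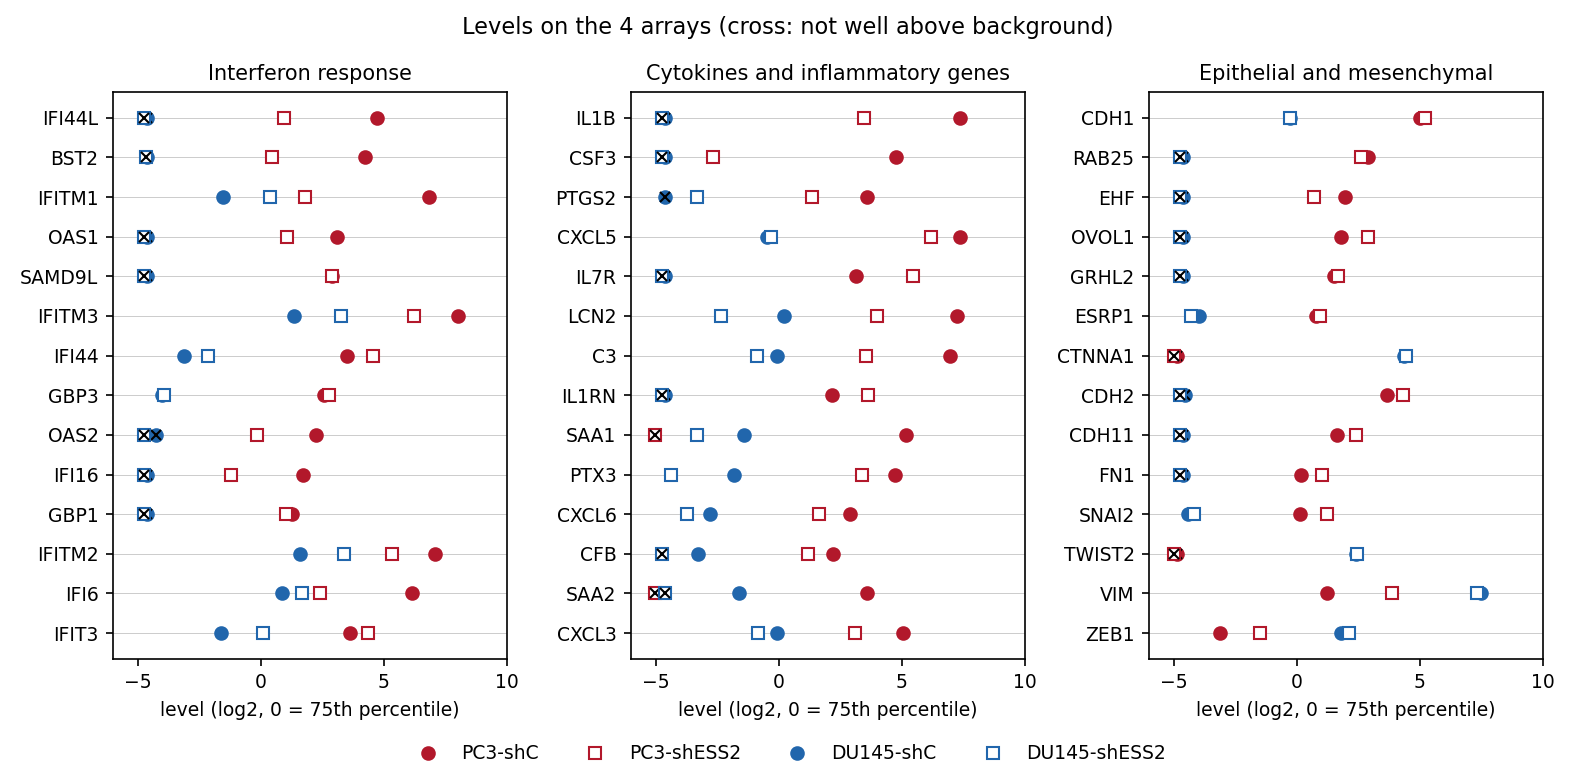
Levels (log2, 0 is the 75th percentile of the array) of the 14 interferon response genes and the 14 inflammatory genes with the highest log2 ratios, and of 14 epithelial and mesenchymal genes, on the 4 arrays, with 1 symbol per array and a cross where the gene was not well above background. In the left and middle panels PC3-shC (filled red) lies to the right of DU145-shC by the choice of genes, and it also lies to the right of DU145-shESS2 for every gene. SAA1 and SAA2 were not well above background in PC3-shESS2, and in the right panel CTNNA1 and TWIST2 were not on either PC3 array.

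Epithelial lineage genes set the lines apart next. Of 47 epithelial junction genes compared, 25 were more than 2-fold higher in PC3-shC (53.2%) and 6 lower (12.8%), with a median of 1.21. CDH1, E-cadherin, had levels of 5.01 and 5.22 in PC3 and -0.27 on both DU145 arrays, 38.9-fold higher in PC3-shC (limma adjusted p = 0.0015). Some transcription factors of epithelial identity were measured in PC3 alone. OVOL1 had levels of 1.81 and 2.91, GRHL2 of 1.52 and 1.67 and EHF of 1.96 and 0.70 in PC3, and all 3 were not well above background on either DU145 array. Of others of this kind, KLF5 and ELF3 were at 2.63 and 1.72, and GRHL1 and GRHL3 at 0.80 and 0.08. ESRP1, an epithelial splicing factor, and ST14, the protease matriptase, had log2 ratios of 4.76 and 5.36, and RAB25, a trafficking GTPase dim in DU145-shC, had 7.53 or above. CTNNA1 was the lowest member, at -9.23 or below, while the other catenins CTNNB1, CTNND1 and JUP had log2 ratios of 0.82, -0.26 and 0.94. The desmosomal cadherins DSC2 and DSG2 were also lower in PC3-shC, at -2.54 and -1.28.

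The mesenchymal genes were split. Of 31 compared, 16 were more than 2-fold higher in PC3-shC (51.6%) and 8 lower (25.8%). CDH2, N-cadherin, had levels of 3.66 and 4.33 in PC3 and was dim on both DU145 arrays, at least 297-fold higher in PC3-shC. FN1, fibronectin, and CDH11 were dim in DU145-shC and at 4.77 and 6.25 or above on the log2 scale, and the transcription factor SNAI2 was at 4.59. In contrast, VIM, the intermediate filament vimentin, had levels of 1.24 and 3.87 in PC3 and 7.49 and 7.31 in DU145, 76.2-fold lower in PC3-shC. ZEB1, a repressor of CDH1, had levels of -3.11 and -1.48 in PC3 and 1.80 and 2.12 in DU145. TWIST2 was dim in PC3 and had levels of 2.39 and 2.45 in DU145. AXL, a receptor kinase, and CCN2, a matrix growth factor, were at -3.31 and -4.10. The cadherins CDH1, CDH2 and CDH11 were thus higher in PC3-shC, and VIM, ZEB1, TWIST2 and AXL were higher in DU145-shC. Of the 10 fibroblast and endothelial genes compared, 3 were more than 2-fold higher in PC3-shC (30.0%) and 1 was lower (10.0%). The higher genes were ACTG2 and PECAM1, both dim in DU145-shC, at 8.05 and 4.98 or above, and COL1A1 at 1.33. DCN, COL1A2, COL3A1, PDGFRA, KDR, CLDN5 and EMCN were not well above background on either control array. The part of such cells in these results was not tested.

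Keratins made up most of the higher genes of the basal list. Of 19 basal genes compared, 12 were more than 2-fold higher (63.2%) and 4 lower (21.1%), with a median of 2.16. All 10 keratins compared were among the higher genes, whereas of the 9 other genes 2 were higher, S100A2 at 4.74 and CAV1 at 1.08, and 4 were lower, BNC1 and DST at -3.36 and -2.07, and DSC3 and NGFR, dim in PC3-shC, at -2.30 and -1.59 or below. KRT6B had levels of 3.58 and 5.56 in PC3, KRT6A of 1.75 and 3.48 and KRT14 of -1.04 and 3.78, and all 3 were not well above background in DU145. KRT6A, KRT6B and KRT6C are near-identical, so the signal of 1 may come from another. TP63, the master factor of basal cells, and KRT5, the keratin that pairs with KRT14, were dim on both control arrays. Over all keratins, 18 of 31 compared were more than 2-fold higher in PC3-shC (58.1%, against 22.1% of all genes) and none was lower.

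Of 19 luminal genes compared, 11 were more than 2-fold higher in PC3-shC (57.9%) and 1 lower (5.26%), with a median of 1.29. KLK3, which encodes PSA, was not well above background on either control array, nor were KLK4, FOLH1, HPN, MSMB, TRPM8 or NPY. HOXB13, a homeobox factor of the prostate, had levels of 4.06 and 3.30 in PC3 and was dim in DU145, at least 410-fold higher in PC3-shC. SPDEF, an ETS factor of secretory epithelium, had levels of 2.24 and 1.63 in PC3 and -2.45 and -2.49 in DU145. FOXA1 and GATA2, pioneer factors of luminal cells, had log2 ratios of 1.38 and 0.80. PSCA, a surface antigen, was the member more than 2-fold lower in PC3-shC, at -2.57.

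Few neuroendocrine genes were measured. Of 23 on the array, 15 were not well above background on either control array, among them CHGA, SYP, INSM1 and NCAM1. Of the 8 compared, 2 were more than 2-fold higher in PC3-shC and 4 lower. UCHL1, a neuronal deubiquitinase, had levels of 8.95 and 8.61 in DU145 and was not well above background in PC3, which gave the lowest log2 ratio of the named genes, -13.83 or below. NKX2-1, the thyroid and lung homeobox factor, had levels of 4.23 and 4.71 in DU145 and was dim in PC3. SCG5, a chaperone of prohormone convertase, had levels of 1.04 and 1.78 in PC3 and -3.03 and -2.92 in DU145. ENO2, neuron-specific enolase, had a log2 ratio of -0.62 between the controls and 0.83 between the knockdown arrays.

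The targets of NRF2, the transcription factor of the oxidative stress response, were more often lower than higher in PC3-shC. KEAP1, the adaptor that holds NRF2 for degradation, had levels of 3.27 and 3.21 in PC3 and was not well above background on either DU145 array, at least 237-fold higher in PC3-shC. Of the 36 genes of the list compared, KEAP1 included, 18 were more than 2-fold lower in PC3-shC, where 19.9% of all genes were, and 4 higher, with a median of -1.02 that stayed between -1.47 and -0.56 over the scalings. AKR1B1, an aldo-keto reductase, had levels of -0.22 and -1.08 in PC3 and 6.35 and 5.53 in DU145, a log2 ratio of -6.57. NQO1, the quinone reductase, had levels of -0.93 in PC3-shC and 2.80 in DU145-shC and was 13.3-fold lower. TXNRD1, thioredoxin reductase, UGDH, ABCC2 and HMOX1, heme oxygenase, were at -3.15, -2.67, -2.61 and -2.43. GSTP1, a glutathione transferase, and AKR1B10 were higher in PC3-shC, at 2.08 and 1.66. NFE2L2, which encodes NRF2 itself, was not well above background on either control array.

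Of the metallothioneins, which bind zinc and copper, 4 of 10 genes compared were more than 2-fold lower in PC3-shC (40.0%, against 19.9% of all genes) and none higher. MT1M had levels of 5.98 and 5.55 in DU145 and was dim in PC3, at least 1859-fold lower, while MT2A had a log2 ratio of 0.32. The MT1 genes are near-identical, so a probe may read a relative. ALDH2, the mitochondrial aldehyde dehydrogenase, had levels of 3.45 and 3.92 in DU145 and was dim in PC3. STRA6, the receptor for retinol-binding protein, had levels of 5.22 in PC3-shC and -1.10 in PC3-shESS2 and was dim in DU145.

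Secreted growth factors and protease inhibitors held several of the highest ratios. INHBA and INHBB, the activin subunits, had levels of 6.90 and 7.19 and of 6.39 and 5.79 in PC3 and were not well above background on either DU145 array. FST, follistatin, which binds activin, had levels of 4.31 and 5.62 in PC3 and -3.20 and -2.98 in DU145. The activin genes and their binder were thus high in the same line. TGFB2 was at 4.15, and the signal carriers SMAD2 and SMAD4 were lower in PC3-shC, at -2.48 and -2.53. Of the 44 TGF-beta and BMP genes compared, 16 were more than 2-fold higher and 9 lower.

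Of 47 proteases and inhibitors compared, 22 were more than 2-fold higher in PC3-shC and 8 lower, while the sign of their median differed between scalings. PI3, the elastase inhibitor elafin, had levels of 8.49 and 7.98 in PC3 and -3.76 and -3.35 in DU145, 4867-fold higher in PC3-shC. The serpins SERPINB3 and SERPINB4, squamous antigens near-identical to each other, were dim in DU145-shC and at 9.72 and 9.60 or above, and SLPI, another protease inhibitor of mucosa, was at 6.91. Of the proteases, KLK6 and MMP7, matrilysin, were dim in DU145-shC and at 6.69 and 6.43 or above. MMP1, interstitial collagenase, went the other way, with levels of -0.95 and -0.83 in PC3 and 4.98 and 3.73 in DU145.

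Of 20 integrins compared, 5 were more than 2-fold higher and 3 lower in PC3-shC. ITGB4, the hemidesmosome subunit, had levels of 6.48 and 6.52 in PC3 and 1.53 and 0.68 in DU145, and ITGB8, dim in DU145-shC, was at 5.29 or above. The laminin subunits had LAMA4, dim in DU145-shC, at 5.47 or above and LAMA1 at -4.89, although the probes of LAMA4 disagreed, from -2.46 to 7.52. Of 36 other adhesion molecules compared, 17 were more than 2-fold higher (47.2%) and 6 lower (16.7%), with a median of 0.88. CADM1, a homophilic adhesion protein and tumor suppressor, had levels of 4.35 and 3.90 in DU145 and was dim in PC3, at least 598-fold lower. EFNB2, an ephrin ligand, was at 7.21, and NECTIN4, dim in DU145-shC, at 5.52 or above. Of 40 receptor kinase genes and ligands compared, 11 were higher (27.5%) and 12 lower (30.0%) past 2-fold, against 22.1% and 19.9% of all genes. Among the lower genes were the ligand EREG at -6.38, the receptors FGFR1 and IGF1R at -5.01 and -4.09 and FGFR3, dim in PC3-shC, at -4.93 or below. Of 29 antigen presentation genes compared, 3 were higher (10.3%) and 6 lower past 2-fold, the lower share (20.7%) near that of all genes. Over the scalings, 2 to 12 were higher and 5 to 7 lower. Of class II, HLA-DMB and HLA-DQB1 were at -4.59 and -3.28, HLA-DPA1 was at -0.80, and HLA-DRA, HLA-DQA1, CD74 and CIITA were dim on both control arrays. HLA-B of class I was at 0.63, with probes of both signs.

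Beyond the lists, the 12 largest ratios in each direction were ranked among genes with every probe, and the knockdown arrays past 2-fold, in the same direction. Among genes well above background on both control arrays, LCP1, an actin bundler of leukocytes, and LAD1, an anchoring filament protein, were higher in PC3-shC by 9.67 and 8.54 on the log2 scale, with LXN, TMEM125 and TNS4 at 9.43, 7.92 and 7.78. DUSP23, a phosphatase, CRAT, carnitine acetyltransferase, and LY6K were lower, at -9.42, -8.67 and -7.92. Others lower in PC3-shC were CFAP251, EHD2, HENMT1, TOX2, SLC25A21, GRK3, DNAJA4 and PRKAG2-AS1, between -8.04 and -6.81. Among genes measured in 1 control line only, whose ratios are bounds, PXDN, a matrix peroxidase, SULF2, a heparan sulfatase, AGR2, a disulfide isomerase of mucous cells, BHLHE41 and ADGRF1 were measured in PC3-shC, at 10.80, 9.89, 9.62, 10.31 and 9.66. BTG3, an antiproliferative protein, TESC, BCHE, butyrylcholinesterase, RUNX3, a transcription factor, LHFPL4 and COCH were measured in DU145-shC, from -10.78 for BTG3 to -8.59 for COCH.

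The promoters of genes measured in 1 line only were read for base composition. The CG dinucleotide, the site of DNA methylation, was counted in the 250 bases before the start of protein-coding genes, and a promoter with 15 or more was called CG-rich. Of genes well above background in both lines, 71.4% of 10525 promoters were CG-rich, and of genes in neither line 784 of 3132 were. Of genes measured only in PC3-shC and past 2-fold, 88 of 335 promoters were CG-rich (26.3%), with a median of 6 CG. Of genes measured only in DU145-shC and past 2-fold, 307 of 550 were CG-rich (55.8%), with a median of 17. In the whole table, which is not limited to protein-coding genes, 42.7% of the 27305 promoters were CG-rich. The shares are a description over genes, which are not independent, and methylation was not measured.

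The promoters of 3 genes of large difference are shown as examples (RefSeq, GRCh38.p14, 5′ to 3′), with each CG in capitals. UCHL1, measured in DU145, lies at chr4:41256678-41256927 on the plus strand and holds 20, KEAP1, dim in DU145, lies at chr19:10503357-10503606 on the minus strand and holds 30, and IL1B, measured in PC3, lies at chr2:112836780-112837029 on the minus strand and holds 1.
UCHL1: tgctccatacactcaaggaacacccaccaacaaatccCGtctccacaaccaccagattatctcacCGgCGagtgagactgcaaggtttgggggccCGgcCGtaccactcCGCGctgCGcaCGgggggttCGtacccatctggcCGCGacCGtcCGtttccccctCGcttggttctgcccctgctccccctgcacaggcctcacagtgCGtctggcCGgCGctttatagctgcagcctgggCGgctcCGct
KEAP1: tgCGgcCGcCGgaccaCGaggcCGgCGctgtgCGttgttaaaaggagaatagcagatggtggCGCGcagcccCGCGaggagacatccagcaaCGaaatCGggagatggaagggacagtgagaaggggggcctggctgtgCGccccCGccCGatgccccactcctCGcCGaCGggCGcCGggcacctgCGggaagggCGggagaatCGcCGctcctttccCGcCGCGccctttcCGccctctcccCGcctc
IL1B: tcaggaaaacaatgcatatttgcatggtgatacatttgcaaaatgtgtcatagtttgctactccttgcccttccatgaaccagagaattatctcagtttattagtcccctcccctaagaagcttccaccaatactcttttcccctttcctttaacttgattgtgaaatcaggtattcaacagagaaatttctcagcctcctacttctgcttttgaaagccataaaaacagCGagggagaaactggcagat
KEAP1 is thus among the 88 CG-rich promoters of genes measured only in PC3-shC.

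Of 14 genes that often serve as references, 10 lay within 2-fold and 4 were higher in PC3-shC. RPLP0, a ribosomal protein, had levels of 9.26 and 9.19 in PC3 and 9.20 and 9.06 in DU145, and SDHA and GAPDH had log2 ratios of -0.01 and 0.73. PGK1, TFRC, YWHAZ and HPRT1 were at 2.76, 1.98, 1.33 and 1.21. Of the 86 cytoplasmic ribosomal protein genes, 77 lay within 2-fold and 9 were higher in PC3-shC. ESS2 had levels of -0.98 in PC3-shC and -1.31 in DU145-shC, a log2 ratio of 0.32, and of -2.44 and -3.66 in PC3-shESS2 and DU145-shESS2.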

How the data were processed

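RNA of 4 cultures was labelled with Cy3 and hybridized to Agilent human gene expression arrays, 1 per condition, and the deposited values were background-subtracted processed intensities from Agilent Feature Extraction 12.1.0.3 (PC3) and 12.0.3.1 (DU145). The authors also deposited these intensities multiplied by a constant per array, on a linear scale, which were log2-transformed and used only as an alternative. Of 62976 spots, 60901 were not controls, and 5 probes were left out. Intensities were divided by the 75th percentile of each array over non-control spots and log2-transformed. A dim value below the lowest signal well above background was then raised to it. Spots of 1 probe were averaged, and a gene took its brightest probe. No test was made between the control arrays, and more than 2-fold was taken as different. The line difference over all 4 arrays was tested with limma 3.58.1 in R 4.3.3, with Benjamini-Hochberg adjustment. The test was run on simulated data that gave every gene the same spread and raised no dim levels. That run does not show how the test behaves with the spread and dim levels of the real data. The 2 arrays of a line carried different shRNAs and no condition was repeated, so p-values rest on how far the difference between lines varied from the controls to the knockdown cells. They also rest on a spread pooled over all genes tested, toward which limma moved that of each gene, with 2.85 prior against 1 residual degree of freedom. Tables were made in Python 3.11.15.

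The members, the 43 gene lists and the rule for named genes were chosen with earlier results of these data known. The rule took the genes of known losses with 5 measured neighbours on each side, the 12 largest ratios per direction, list members past 2-fold or defining a list, ESS2 and the reference genes. The run on chromosome 17 with its neighbours, the keratin run, DHX58 and the list members within 2-fold that do not define a list were named after their values were seen. Promoters came from RefSeq (GRCh38.p14) and were matched by symbol. Alternatives were median, quantile and spike-in scaling, normexp, the authors' values, other filters and probe rules, and leaving out arrays. Some genes of the lists are not reported here.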

Additional observations from a re-analysis of the deposited data

Results flagged for a closer look

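Of the genes more than 2-fold apart in both comparisons, 33 went in opposite directions between the control arrays and the knockdown arrays, and 5 of them belong to the gene lists. The difference between the comparisons was not tested, since each has 1 array per line. ITGA5, an integrin subunit, had a log2 ratio of -1.05 between the controls and 1.31 between the knockdown arrays. ITGB3, another subunit, had 1.99 and -1.40. PMAIP1, a pro-apoptotic protein, had -1.10 and 1.73. SAA1, an acute phase protein, had 6.58 and -1.67 or below, with levels of 5.19 in PC3-shC and of -1.39 and -3.34 in DU145, and was not well above background in PC3-shESS2. SPARC, a matrix protein, had 2.93 and -1.05 or below, and was also dim in PC3-shESS2. In all 5 genes the PC3 arrays differed more from each other than the DU145 arrays did.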

How the results depend on the processing

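Between the control arrays, 7343 genes were past 2-fold, 3863 higher and 3480 lower in PC3-shC. Median scaling gave 6132 higher, the authors' values 2399 higher, and normexp 4558 in all, 2260 higher and 2298 lower, and 4790 against 7476 between the knockdown arrays. The keratin median of 1.29 became -0.11 with no filter on dim genes, and the neuroendocrine median of -1.03 became 0.47 over genes measured on both arrays. CXCL2 had 0.17 with probes averaged, the single reversal among 563 named genes checked, of which 152 no longer passed 2-fold under normexp, 82 with the authors' values, 60 with quantile and 51 with median scaling, 36 with spike-ins and 32 with probes averaged. Limma called 8510 genes, and 6300 to 8005 with 1 array left out, where a lone array of a line is assumed to vary like the other. Medians of the DU145 loss, integrin, laminin, protease, MHC, aldehyde, receptor kinase, leukocyte, fibroblast, reference and ribosomal lists, among others, changed sign between scalings. The labels carry no replicate numbers. The knockdown term pairs the arrays by shRNA, and without it limma called 8716 genes. Cell line and slide cannot be told apart, and 1 array per group limits every value.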

Other observations

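Of 32 collagen genes compared, 15 were more than 2-fold higher in PC3-shC (46.9%) and 6 lower (18.8%), against 22.1% and 19.9% of all genes. COL4A5, a basement membrane chain, had levels of 2.54 and 2.68 in PC3 and was not well above background on either DU145 array, at least 143-fold higher in PC3-shC, and its partner COL4A6, also dim in DU145-shC, was at 5.26 or above on the log2 scale. COL4A4, a chain of another basement membrane trimer, was lower in PC3-shC, at -2.88, as was COL18A1 at -2.64. COL8A1 and COL8A2, chains of the same collagen, went opposite ways, at 4.74 and, dim in PC3-shC, at -4.73 or below, although the probes of COL8A2 ranged from -5.44 to -1.70.

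Of 36 proliferation genes compared, 15 were more than 2-fold higher in PC3-shC (41.7%) and 1 lower (2.78%), though between 4 and 20 were higher over the scalings. Of all genes, 22.1% were higher and 19.9% lower. The replication genes GINS2, PCNA and RRM2 were at 2.26, 1.90 and 1.54, and TOP2A, a topoisomerase of dividing cells, was at -1.22. CDK6, a G1 kinase, had levels of 2.73 and 3.75 in PC3 and -0.31 and 0.31 in DU145.

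By chromosome, the median log2 ratio of the genes compared was lowest on chromosome 18, at -0.43 over 250 genes, and on chromosome 9, at -0.37 over 726 genes, of which 7.99% were more than 2-fold higher and 30.6% lower in PC3-shC. It was highest on chromosome 20, at 0.66 over 494 genes, of which 37.2% were higher and 12.8% lower. The knockdown arrays gave -0.50, -0.37 and 0.46 for these 3 chromosomes.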
